A study of Danio rerio with 4 samples.

Results

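The voltage-gated sodium, potassium and calcium channel genes were examined in whole zebrafish larvae in which *grwd1*, a gene needed for assembly of the large ribosomal subunit, had been disrupted. Members were all rows of the deposited count table whose zebrafish symbol begins with scn plus a digit, kcn or cacn, leaving out the scnn and scnm genes. This rule gave 193 of 32520 genes, of which 12 were sodium channel genes, 129 potassium channel genes, 46 calcium channel genes and 6 skeletal muscle isoforms that were set apart (the *scn4a*, *cacna1s* and *cacng1* genes). The family name is wider than voltage gating, because the symbols also take in inward rectifier, leak and calcium-activated potassium channels and the auxiliary subunits. Genes classed by symbol as subunits of voltage-gated pores made up 78 of the 193 genes. The kcnf, kcng, kcns and kcnv genes were counted among these, whether or not they form a channel alone. Some 73 members share their symbol with another row in the name table used here, and these are given with their Ensembl identifier.

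RNA was sequenced from 2 libraries of *grwd1* crispants and 2 libraries of wildtype (wt) larvae, all at 8 days post fertilization (dpf). Crispants are first-generation (F0) fish grown from eggs injected at the single-cell stage with a pair of *grwd1* guide RNAs and Cas9 mRNA, so each fish is a mosaic of edited and unedited cells. The wt larvae were not described as injected, so editing and injection cannot be told apart. For each group 15 larvae were pooled. Whether the 2 libraries of a group stem from different pools is not given, so p-values here reflect library-to-library spread alone, and that spread could be technical.

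Sodium channels open when the membrane depolarizes and carry the upstroke of the action potential in neurons and muscle. Potassium channels repolarize the membrane, set the resting potential and pace repeated firing. Calcium channels turn depolarization into a chemical signal, which triggers transmitter release at synapses and contraction in muscle. Each pore-forming alpha subunit works with auxiliary subunits that set its gating and its delivery to the surface. In larval fish these genes are read mainly in brain, spinal cord, sense organs, heart and skeletal muscle, while several inward rectifier and leak channels also serve epithelia.

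The libraries held 18510962 and 15916216 counts in the crispants, against 16086482 and 18619802 counts in wt. Channel genes took 0.201% and 0.179% of all counts in the crispants, against 0.214% and 0.212% in wt. *grwd1* itself was at 6.40 and 6.34 CPM in the crispants and at 25.0 and 24.1 CPM in wt, a log2 fold change of -1.94 ± 0.18 (SE, edgeR adjusted p = 3.25e-14). CPM values are reads of a gene scaled to a common library size, after trimmed mean of M-values (TMM) scaling. The total count per channel gene over the 4 libraries had a median of 319 and ran between 4 and 7169, and 36 of the 193 genes had fewer than 100 counts in all. Since CPM is not corrected for transcript length, levels are compared only between libraries, not between genes.

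Channel transcripts were on the whole lower in the crispants, by a small amount. Of 184 channel genes with enough counts to be tested, 19 fell and 2 rose at an adjusted p of 0.05 or less (edgeR quasi-likelihood test, Benjamini-Hochberg adjustment over all 20479 genes tested), and 163 did not pass. That is 10.3% of channel genes lower and 1.09% higher, beside a background of 7.44% of all tested genes lower and 8.98% higher. The median log2 fold change of the 184 genes was -0.20, against 0.00 over all tested genes, and 132 of them (71.7%) were below 0, against 49.5% of all tested genes. Both crispant libraries lay below both wt libraries for 80 of the 184 genes (43.5%, background 26.5%) and above them for 21 genes (11.4%, background 28.1%). Summed over all members, channel transcripts came to 1939 and 1768 CPM in the crispants, against 2203 and 2170 CPM in wt. In whole larvae, fewer cells of a type and less RNA per cell cannot be told apart.

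Both crispant libraries showed the shift, but not to the same extent. Relative to the wt mean, the median log2 ratio of the tested channel genes was -0.12 in crispant 1 and -0.24 in crispant 2, and crispant 2 was below crispant 1 for 111 of the 184 genes. Over all genes 1524 were lower and 1839 higher with edgeR, 1017 and 1107 with DESeq2, and 1581 and 1827 with limma-voom. With DESeq2 in place of edgeR 11 channel genes were lower and 0 higher, and with limma-voom 19 were lower and 2 higher. Without crispant 1, crispant 2, wt 1 or wt 2 in turn the number lower was between 13 and 16 and the number higher between 0 and 2. Of the 21 calls, 6 held under all 13 alternative settings: *scn12aa*, *kcnip1b*, *cacna2d4b*, *cacnb4b* and both *cacng8* genes.

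**Figure D1:**
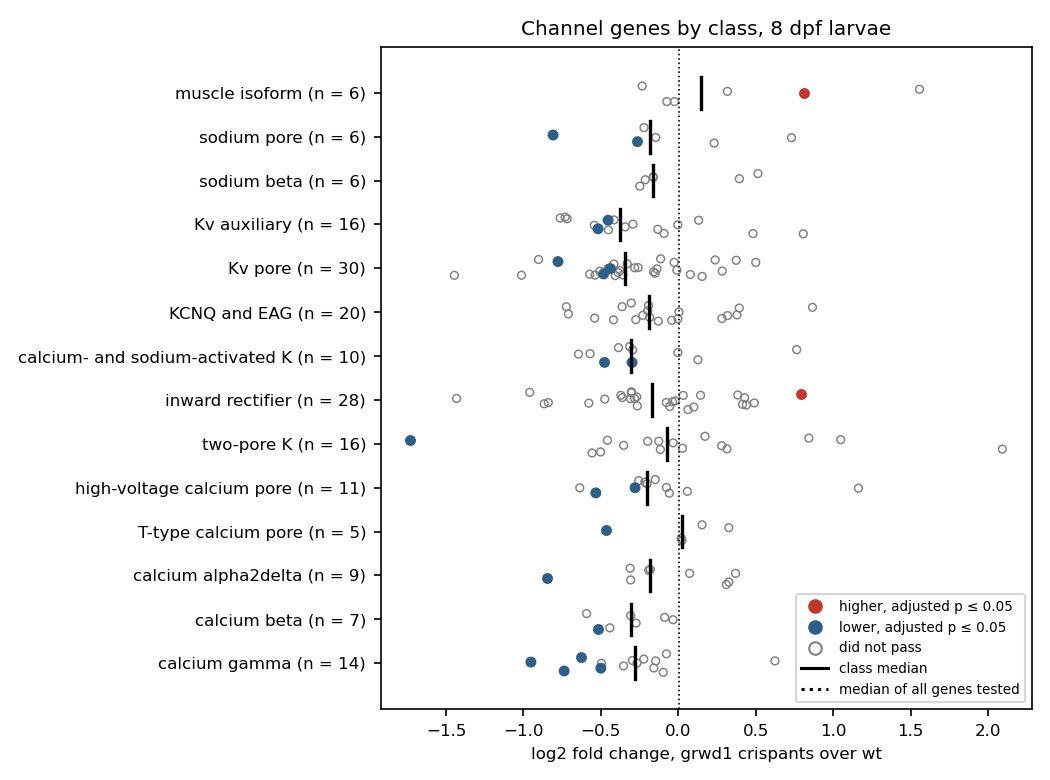
Log2 fold change (crispants over wt, horizontal axis) of each of the 184 tested channel genes, by class, with filled points for genes at an edgeR adjusted p of 0.05 or less, a bar at each class median and a dotted line at the median of all genes. Most classes have their median left of the line; 19 genes are filled on the lower side and 2 on the higher side.

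The called genes were largely those with many reads. Among channel genes with a mean of 20 CPM or more, 14 of 32 fell (43.8%) and 0 rose (edgeR; 1 higher at an unadjusted p under 0.05, 0 with DESeq2 or limma-voom), against 14.2% lower and 11.0% higher among all genes between 20 and 200 CPM. Between 5 and 20 CPM 4 of 58 fell and 2 rose, which is 6.90% lower and 3.45% higher, against 3.73% lower and 9.76% higher among all genes in that range. Below 5 CPM 1 of 94 fell (1.06%, against 0.849% of all genes) and 0 rose (edgeR; 4 higher at an unadjusted p under 0.05, 0 with DESeq2 or limma-voom), against 5.80% of all genes higher. The median log2 fold change of the channel genes was -0.27, -0.20 and -0.08 from the upper to the lower of these ranges. Over all tested genes in the same ranges it was -0.05, 0.02 and 0.16. The channel median was thus below that of all genes in every range, by a similar margin.

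**Figure D2:**
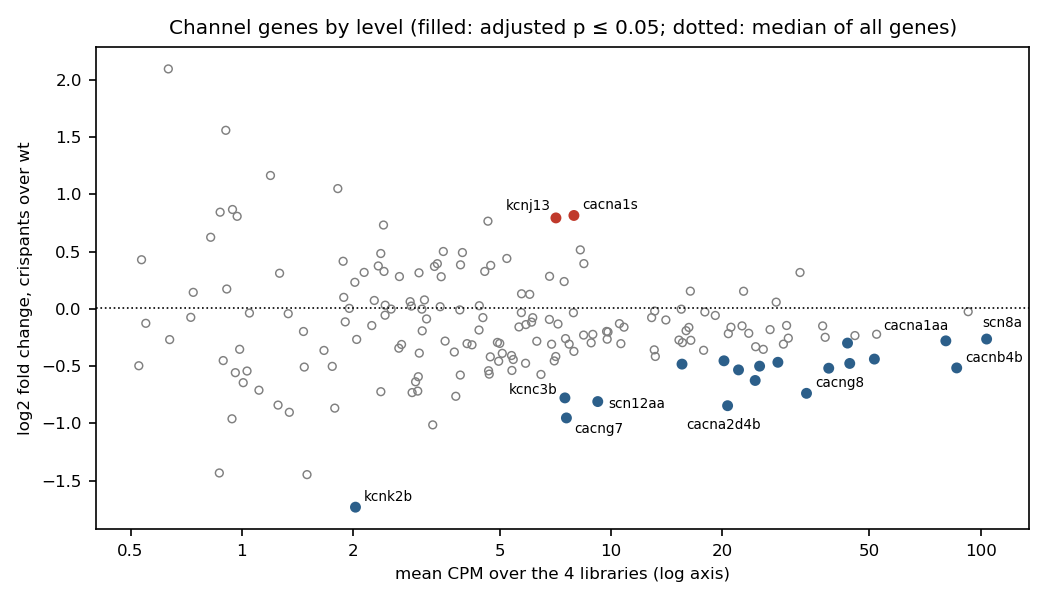
Log2 fold change (crispants over wt, vertical axis) against mean CPM over the 4 libraries (log axis) for the 184 tested channel genes, filled where the gene passed the test. At 20 CPM and above 14 of 32 genes are filled and all of these are below 0, while below 5 CPM the spread is wide and 1 of 94 is filled.

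Among the sodium channel genes, 2 of 12 fell (16.7%) and 0 rose, against 7.44% lower and 8.98% higher of all tested genes (edgeR; 1 was higher and 4 lower at an unadjusted p under 0.05, DESeq2 called 0 higher and 1 lower, limma-voom 0 higher and 2 lower). The median log2 fold change was -0.16. Both genes that fell encode pores, out of 6 pore genes. *scn12aa* was at 6.30 and 7.08 CPM in the crispants and at 11.7 and 11.7 CPM in wt, a log2 fold change of -0.81 ± 0.22 (SE, edgeR adjusted p = 0.00467, and between 0.00296 and 0.0450 over the alternatives). The crispant libraries were well below the wt libraries, which were almost equal. *scn8a* (ENSDARG00000005775) encodes a channel that in mammals is concentrated at the axon initial segment and the nodes of Ranvier. It was at 102 and 86.7 CPM in the crispants and at 120 and 106 CPM in wt, a log2 fold change of -0.26 ± 0.08 (SE, edgeR adjusted p = 0.0215). The groups did not overlap, but crispant 1 lay close to wt 2, and the call was lost without crispant 2 (edgeR adjusted p = 0.310) or wt 1 (0.352), with DESeq2 (0.0785) and with library totals as the only scaling (0.124), while the lowest value over the alternatives was 0.00151.

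The other abundant sodium pore gene, *scn1lab*, whose loss gives a zebrafish model of Dravet epilepsy, was at 53.2 and 43.3 CPM in the crispants and at 54.9 and 57.8 CPM in wt, and did not pass (log2 fold change -0.22 ± 0.10 SE, edgeR adjusted p = 0.143). It was called lower without crispant 1 (edgeR adjusted p = 0.0242, and between 0.0242 and 0.723 over the alternatives). A second gene with the *scn8a* symbol (ENSDARG00000018032) was named after its values were seen. It had 641 and 374 counts in the crispants against 465 and 601 counts in wt, so that its groups overlapped (log2 fold change -0.15, edgeR adjusted p = 0.524). The difference between these 2 genes was not tested.

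The sodium beta subunits, single-pass membrane proteins that modify gating and cell adhesion, gave 0 calls among 6 genes (edgeR; 1 higher and 1 lower at an unadjusted p under 0.05, and 0 with DESeq2 or limma-voom). *scn3b* was at 21.5 and 22.1 CPM in the crispants and at 25.9 and 24.8 CPM in wt. It was lower in each crispant library and did not pass (log2 fold change -0.21 ± 0.14 SE, edgeR adjusted p = 0.330). Of the 6 beta genes 4 were below 0 and 2 above. The 2 above were the *scn4b* genes, added after their values were seen. Both were higher in each crispant library and did not pass. The log2 fold changes were 0.51 for ENSDARG00000060319 (edgeR adjusted p = 0.118) and 0.39 for ENSDARG00000099031 (edgeR adjusted p = 0.259).

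Potassium channels form the largest group. Of 120 tested genes 8 fell (6.67%, below the 7.44% of all genes) and 1 rose (0.833%, against 8.98%), the median log2 fold change was -0.26, and 86 genes were below 0. By class, 3 of 30 pore genes of the voltage-gated (Kv) type fell, 2 of 16 Kv auxiliary genes and 2 of 10 genes of the calcium- and sodium-activated class. Their class medians were -0.34, -0.38 and -0.31. The Kv auxiliary class also holds both *kcnmb2* genes and *kcnmb3*, which are auxiliary to the calcium-activated *kcnma1* channel and did not pass. In the inward rectifiers 0 of 28 fell and 1 rose (edgeR; 1 lower at an unadjusted p under 0.05, 0 with DESeq2 or limma-voom), and in the leak channels of the kcnk family 1 of 16 fell, with medians of -0.17 and -0.07.

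Among the Kv pores, a pair of fast-repolarizing channels fell. *kcnc1* (ENSDARG00000051852) belongs to the family that lets mammalian interneurons repolarize quickly and fire at high rates. It was at 45.7 and 41.8 CPM in the crispants and at 63.5 and 55.3 CPM in wt, a log2 fold change of -0.44 ± 0.10 (SE, edgeR adjusted p = 0.000994). Its relative *kcnc3b* was at 5.57 and 5.47 CPM in the crispants and at 10.1 and 8.89 CPM in wt, a log2 fold change of -0.78 ± 0.24 (SE, edgeR adjusted p = 0.0161). In both genes the crispant libraries were close together and below either wt library. *kcnc3a*, the paired copy with more counts, was at 37.0 and 33.7 CPM in the crispants and at 44.8 and 33.9 CPM in wt. Its groups overlapped, since crispant 1 was above wt 2, and it did not pass (log2 fold change -0.15 ± 0.12 SE, edgeR adjusted p = 0.454). The other kcnc genes, named after their values were seen, did not pass. Their log2 fold changes were -0.36 for *kcnc1* (ENSDARG00000032959, edgeR adjusted p = 0.191), -0.45 for *kcnc2* (0.238) and 0.08 for *kcnc4* (0.932). Without wt 1 the *kcnc1* call was lost (edgeR adjusted p = 0.0777, and between 0.000493 and 0.0777 over the alternatives), and that of *kcnc3b* was lost without crispant 1 (0.0530), crispant 2 (0.0537) or wt 1 (0.136), or with DESeq2 (0.0652), while the lowest value over the alternatives was 0.0123.

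*kcnd2*, a pore of the A-type current that delays firing, fell, as did 2 of the 7 genes for its calcium-binding partners, the Kv channel-interacting proteins. The other 5 partner genes did not pass, with log2 fold changes between -0.76 for *kcnip3b* and 0.48 for *kcnip4*, nor did *kcnd1* (-0.16) or *kcnd3* (-0.03), all named after their values were seen. *kcnd2* was at 12.9 and 13.1 CPM in the crispants and at 17.4 and 18.9 CPM in wt, a log2 fold change of -0.48 ± 0.17 (SE, edgeR adjusted p = 0.0375). *kcnip1b* was at 33.6 and 30.2 CPM in the crispants and at 42.7 and 48.7 CPM in wt, a log2 fold change of -0.52 ± 0.11 (SE, edgeR adjusted p = 0.000418, and between 0.000187 and 0.0391 over the alternatives). For both genes the libraries of each group were near each other and the groups stood apart. *kcnip3a*, whose mammalian counterpart is also known as calsenilin, was at 14.3 and 19.8 CPM in the crispants and at 26.6 and 20.1 CPM in wt, a log2 fold change of -0.45 ± 0.16 (SE, edgeR adjusted p = 0.0364). Crispant 2 and wt 2 of *kcnip3a* almost met, and its call was lost without crispant 1 (edgeR adjusted p = 0.476) or wt 1 (0.507), with DESeq2 (0.183) and with library totals (0.0942), while the lowest value over the alternatives was 0.00265. The *kcnd2* call was lost without any 1 of the 4 libraries (edgeR adjusted p = 0.134, 0.0879, 0.0742 and 0.222 without crispant 1, crispant 2, wt 1 and wt 2), with DESeq2 (0.118) and with library totals (0.0925), while the lowest value over the alternatives was 0.0335.

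The calcium-activated channels end bursts of firing by coupling calcium entry to potassium efflux. *kcnn1a*, a small-conductance channel of the after-hyperpolarization, was at 38.5 and 35.5 CPM in the crispants and at 48.1 and 54.8 CPM in wt, a log2 fold change of -0.48 ± 0.11 (SE, edgeR adjusted p = 0.000649). Both crispant libraries were well below both wt libraries. *kcnma1* (ENSDARG00000079840), the large-conductance channel, was at 41.5 and 36.7 CPM in the crispants and at 48.2 and 48.1 CPM in wt, a log2 fold change of -0.30 ± 0.11 (SE, edgeR adjusted p = 0.0456). The *kcnn1a* call was lost only without wt 2 (edgeR adjusted p = 0.0567, and between 0.000323 and 0.0567 over the alternatives). That of *kcnma1*, nearest to the threshold, was lost without crispant 2 (edgeR adjusted p = 0.297), wt 1 (0.162) or wt 2 (0.154) and with DESeq2 (0.126), library totals (0.165) or no low-count filter (0.0526), while the lowest value over the alternatives was 0.0310.

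The KCNQ and EAG families, slow pores that hold the membrane near rest, gave 0 calls among 20 tested genes (edgeR; 0 in either direction at an unadjusted p under 0.05, and 0 with DESeq2 or limma-voom), with a median log2 fold change of -0.19. *kcnh7*, an EAG-family pore, was at 10.0 and 8.95 CPM in the crispants and at 12.4 and 11.1 CPM in wt (log2 fold change -0.30 ± 0.20 SE, edgeR adjusted p = 0.348). Each crispant library lay below each wt library.

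The 1 potassium channel gene that rose was *kcnj13*, an inward rectifier known in zebrafish from the jaguar stripe pattern mutant and in mammals from the retinal pigment epithelium and choroid plexus. It was at 9.83 and 8.14 CPM in the crispants and at 5.00 and 5.38 CPM in wt, a log2 fold change of 0.79 ± 0.25 (SE, edgeR adjusted p = 0.0172). Both crispant libraries were above both wt libraries, but the call was lost without crispant 1 (edgeR adjusted p = 0.187), wt 1 (0.0978) or wt 2 (0.0512) and with DESeq2 (0.0855), while the lowest value over the alternatives was 0.00910. Inward rectifiers with more counts did not pass. *kcnj3* (ENSDARG00000062217), a G protein-gated channel of neurons and heart, was at 17.0 and 14.1 CPM in the crispants and at 22.5 and 17.6 CPM in wt (log2 fold change -0.36 ± 0.16 SE, edgeR adjusted p = 0.124). *kcnj12b* was at 13.1 and 13.0 CPM in the crispants and at 13.5 and 12.9 CPM in wt (log2 fold change -0.02 ± 0.18 SE, edgeR adjusted p = 0.966), with the groups overlapping. The name table gives the symbol *kcnj1*, a renal and ionocyte channel, to several rows with few counts each; reads may be split among such near copies, and none of them passed.

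Of the leak channels, *kcnk2b*, a copy of the mechanosensitive TREK channel gene, showed the lowest log2 fold change among all tested channel genes. It had 17 and 16 counts in the crispants, against 47 and 59 counts in wt. As CPM this was 0.885 and 0.994 CPM in the crispants and 3.01 and 3.24 CPM in wt, a log2 fold change of -1.73 ± 0.49 (SE, edgeR adjusted p = 0.00838). The groups stood far apart at a low level, and the call was lost without crispant 1 (edgeR adjusted p = 0.0530) or wt 2 (0.0809, the highest over the alternatives, the lowest being 0.00220). The pair of kcnk genes with most counts showed no difference between the groups beyond their spread. *kcnk10* (ENSDARG00000062849) was at 7.34 and 3.91 CPM in the crispants and at 5.89 and 5.71 CPM in wt, and *kcnk5* (ENSDARG00000012390) at 6.87 and 4.78 CPM in the crispants and at 6.66 and 6.04 CPM in wt. In each the wt libraries lay between the crispant libraries (edgeR adjusted p = 0.962 and 0.837). The farthest from 0 on the higher side, named after its values were seen, was *kcnk4a*, with 17 and 19 counts in the crispants against 3 and 5 counts in wt (log2 fold change 2.09, edgeR adjusted p = 0.0732).

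The 9 channel genes with too few counts for a test were all potassium channel genes: *kcns3* (ENSDARG00000029511), *kcnh8*, *kcnn4*, *kcnj20*, *kcnk7*, *kcnk12*, *kcnk12l* and a pair of genes with the symbol *kcnk13*. *kcnj20* had 0 counts in both crispant libraries, against 6 and 2 counts in wt, which is too little to compare.

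**Figure D3:**
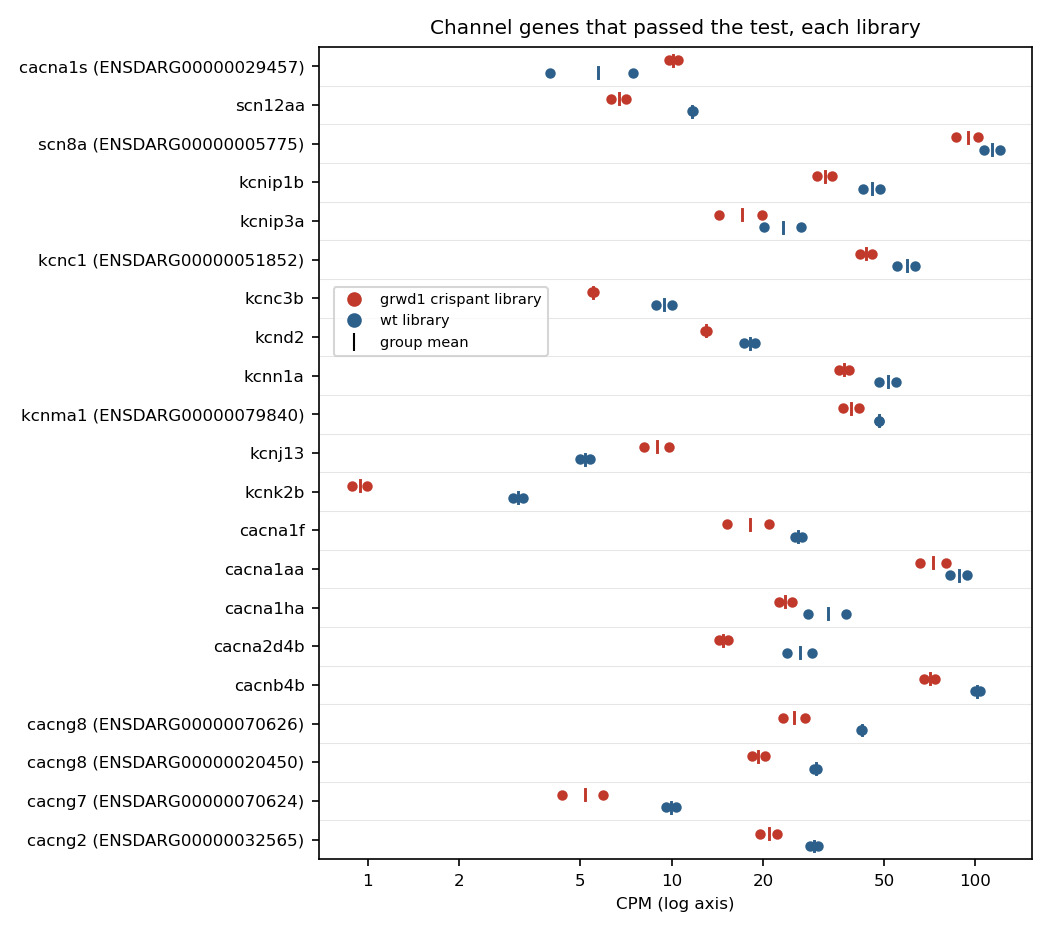
CPM (log axis) of the 21 channel genes that passed the test, with a point for each library and a bar at each group mean (n = 2), crispants above wt within each gene. The groups do not overlap in any of the 21 genes, and the crispant points are to the right of the wt points only in *kcnj13* and *cacna1s* (ENSDARG00000029457). The genes were picked by the test on these same libraries, so their separation is no added support. Of all tested genes, 26.5% had both crispant libraries below both wt libraries and 28.1% had both above.

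Of 46 calcium channel genes, all tested, 9 fell (19.6%) and 0 rose, against 7.44% lower and 8.98% higher of all tested genes (edgeR; 0 higher and 12 lower at an unadjusted p under 0.05, DESeq2 called 0 higher and 6 lower, limma-voom 0 higher and 9 lower). The median log2 fold change was -0.21, and 35 genes were below 0. Every class of subunit had at least 1 gene that fell: 2 of 11 high-voltage pores, 1 of 5 T-type pores, 1 of 9 alpha2delta subunits, 1 of 7 beta subunits and 4 of 14 gamma subunits. The classes were not all shifted down. Of the T-type genes 4 were above 0 and 1 below, with a median of 0.02. Of the alpha2delta genes 4 were above 0 and 5 below, with a median of -0.18. Of the high-voltage pores 9 were below 0 and 2 above. Summed CPM of the calcium group was 662 and 603 in the crispants, against 788 and 788 in wt.

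Among the high-voltage pores, *cacna1f* encodes the channel that drives glutamate release at photoreceptor ribbon synapses, known from human night blindness. It was at 15.2 and 21.0 CPM in the crispants and at 25.4 and 26.8 CPM in wt, a log2 fold change of -0.53 ± 0.15 (SE, edgeR adjusted p = 0.00631). Both crispant libraries were lower, crispant 1 by more. The call was lost without crispant 1 (edgeR adjusted p = 0.257) or wt 2 (0.0561) and with DESeq2 (0.0541), while the lowest value over the alternatives was 0.000322. *cacna2d4b* carries the name of the alpha2delta subunit that partners this pore in mammalian photoreceptors. It was at 14.3 and 15.3 CPM in the crispants and at 24.0 and 29.1 CPM in wt, a log2 fold change of -0.85 ± 0.15 (SE, edgeR adjusted p = 1.2e-05, and between 1.18e-06 and 0.00528 over the alternatives). Its groups stood well apart and its call held under all 13 alternatives. Photoreceptor markers were lower in the same libraries: of 39 tested genes 24 fell (61.5%, against 7.44% of all tested genes) and 0 rose (edgeR; 1 higher at an unadjusted p under 0.05, 0 with DESeq2 or limma-voom), and their summed CPM was 2097 and 2231 in the crispants against 3277 and 3129 in wt. Their part in the *cacna1f* and *cacna2d4b* values was not tested.

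*cacna1aa*, the pore of the P/Q type that triggers release at many central synapses and at the neuromuscular junction, was at 79.9 and 65.5 CPM in the crispants and at 82.5 and 94.1 CPM in wt, a log2 fold change of -0.28 ± 0.09 (SE, edgeR adjusted p = 0.0248). Crispant 1 lay just below wt 1, and the call was lost without crispant 2 (edgeR adjusted p = 0.387) or wt 2 (0.377), with DESeq2 (0.106) and with library totals (0.129), while the lowest value over the alternatives was 0.00101. *cacna1a* (ENSDARG00000006923), which shares the P/Q name and was added after its values were seen, was at 31.6 and 25.4 CPM in the crispants and at 25.3 and 29.5 CPM in wt, with overlapping groups (log2 fold change 0.06 ± 0.13 SE, edgeR adjusted p = 0.832). The difference between these genes was not tested. Another high-voltage pore with many counts, *cacna1da*, needed by zebrafish hair cells, was at 28.98 and 25.97 CPM in the crispants and at 32.5 and 33.2 CPM in wt. It was lower in both crispant libraries but did not pass (log2 fold change -0.26 ± 0.12 SE, edgeR adjusted p = 0.164).

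The T-type pores open near rest and support burst firing. *cacna1ha* was at 24.8 and 22.6 CPM in the crispants and at 37.5 and 28.2 CPM in wt, a log2 fold change of -0.47 ± 0.13 (SE, edgeR adjusted p = 0.00813). *cacna1g* was at 25.3 and 22.6 CPM in the crispants and at 25.9 and 17.4 CPM in wt, and did not pass (log2 fold change 0.15 ± 0.15 SE, edgeR adjusted p = 0.557). In both genes wt 1 was well above wt 2, and only in *cacna1ha* were both crispant libraries below both. Without wt 1 the *cacna1ha* call was lost (edgeR adjusted p = 0.396), likewise without crispant 2 (0.0616) and with DESeq2 (0.0613), while the lowest value over the alternatives was 0.000720.

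The beta subunits carry the pore to the membrane, and all 7 of their genes had a log2 fold change below 0, with a median of -0.31. *cacnb4b* fell, at 73.8 and 68.0 CPM in the crispants and at 103 and 99.4 CPM in wt, a log2 fold change of -0.52 ± 0.09 (SE, edgeR adjusted p = 3.33e-06, and between 3.58e-07 and 0.000463 over the alternatives). Loss of the mouse counterpart gives the lethargic mutant, with ataxia and seizures. The libraries of *cacnb4b* were close within each group and far apart between them. *cacnb1*, the skeletal muscle beta subunit, was at 17.0 and 10.6 CPM in the crispants and at 15.6 and 17.9 CPM in wt. Its groups overlapped and it did not pass (log2 fold change -0.27 ± 0.18 SE, edgeR adjusted p = 0.342), except without crispant 1, where it was called lower (edgeR adjusted p = 0.0256, and between 0.0256 and 0.976 over the alternatives).

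The alpha2delta subunits are auxiliary to the calcium channel pores and organize synapses. Apart from *cacna2d4b*, the genes with most counts were lower in both crispant libraries and did not pass. *cacna2d1a* was at 26.1 and 26.2 CPM in the crispants and at 28.9 and 35.7 CPM in wt (log2 fold change -0.31 ± 0.13 SE, edgeR adjusted p = 0.0909), and was called lower without wt 1 (edgeR adjusted p = 0.0385, and between 0.0385 and 0.665 over the alternatives). *cacna2d2* was at 26.6 and 23.9 CPM in the crispants and at 28.0 and 29.3 CPM in wt (log2 fold change -0.18 ± 0.13 SE, edgeR adjusted p = 0.395).

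The gamma subunits had the most calls of any class, with 4 of 14 lower, 13 of 14 below 0 and both crispant libraries below both wt libraries in 10. As shares these are 28.6%, 92.9% and 71.4%, against 7.44%, 49.5% and 26.5% of all tested genes. The genes that fell carry names of the branch known as TARPs, which in mammals carry AMPA-type glutamate receptors to the synapse. The share of TARPs among all 14 genes was not counted, so the calls do not set this branch apart from other gamma subunits. *cacng8* (ENSDARG00000070626) was at 23.2 and 27.5 CPM in the crispants and at 42.1 and 42.3 CPM in wt, a log2 fold change of -0.74 ± 0.12 (SE, edgeR adjusted p = 2.18e-06, and between 1.22e-07 and 0.000499 over the alternatives). The other *cacng8* gene (ENSDARG00000020450) was at 20.2 and 18.3 CPM in the crispants and at 30.1 and 29.5 CPM in wt, a log2 fold change of -0.63 ± 0.14 (SE, edgeR adjusted p = 0.000364, and between 0.000193 and 0.00802 over the alternatives). In both *cacng8* genes the wt libraries were nearly equal and each crispant library was far below them.

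*cacng7* (ENSDARG00000070624) was at 4.37 and 5.96 CPM in the crispants and at 10.4 and 9.55 CPM in wt, a log2 fold change of -0.95 ± 0.24 (SE, edgeR adjusted p = 0.00276). *cacng2* (ENSDARG00000032565), whose mouse counterpart is stargazin, was at 19.6 and 22.2 CPM in the crispants and at 30.4 and 28.7 CPM in wt, a log2 fold change of -0.50 ± 0.13 (SE, edgeR adjusted p = 0.00479). Both were lower in each crispant library. Without crispant 1 both calls were lost (edgeR adjusted p = 0.0650 for *cacng7* and 0.0866 for *cacng2*), and without wt 1 that of *cacng2* (0.0599). Over the alternatives the lowest values were 0.00106 for *cacng7* and 0.00393 for *cacng2*. *cacng3*, another TARP with many counts, was at 26.1 and 19.1 CPM in the crispants and at 31.2 and 26.8 CPM in wt and did not pass (log2 fold change -0.35 ± 0.14 SE, edgeR adjusted p = 0.0704), although the groups did not overlap. It was called lower without crispant 1 (edgeR adjusted p = 0.00601) or wt 2 (0.0485), with values between 0.00601 and 0.619 over the alternatives.

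The skeletal muscle isoforms were mixed. Of 6 genes, all tested, 1 rose (16.7%) and 0 fell, against 8.98% higher and 7.44% lower of all tested genes (edgeR; 3 higher and 1 lower at an unadjusted p under 0.05, 0 in either direction with DESeq2, 1 higher and 0 lower with limma-voom), and 3 were below 0. Their median log2 fold change was 0.15. Their summed CPM was 190.5 and 173 in the crispants, against 181 and 176 in wt, so the groups overlapped. The difference between these genes and the other channels was not tested.

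*cacna1s* encodes the voltage sensor of excitation-contraction coupling, the pore of the dihydropyridine receptor, and has 2 genes here. *cacna1s* (ENSDARG00000029457) was at 10.5 and 9.82 CPM in the crispants and at 3.97 and 7.47 CPM in wt, a log2 fold change of 0.81 ± 0.24 (SE, edgeR adjusted p = 0.0124). Both crispant libraries were above both wt libraries, with wt 1 the farthest away. The call was lost without wt 1 (edgeR adjusted p = 0.349) or crispant 1 (0.0613) and with DESeq2 (0.102), while the lowest value over the alternatives was 0.000465. *cacna1s* (ENSDARG00000042552) was at 98.2 and 85.1 CPM in the crispants and at 96.3 and 90.5 CPM in wt, with overlapping groups (log2 fold change -0.02 ± 0.09 SE, edgeR adjusted p = 0.898).

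The muscle sodium channel *scn4ab*, which carries the muscle action potential, was at 34.3 and 37.7 CPM in the crispants and at 30.3 and 27.5 CPM in wt (log2 fold change 0.32 ± 0.12 SE, edgeR adjusted p = 0.0619). Both crispant libraries were higher, and the gene was called higher with library totals as the only scaling (edgeR adjusted p = 0.0182) and when at least 10 counts were asked of every library (0.0451), with values between 0.0182 and 0.346 over the alternatives. Its copy *scn4aa* had 22 and 25 counts in the crispants, against 11 and 4 counts in wt (log2 fold change 1.56 ± 0.71 SE, edgeR adjusted p = 0.134). The gamma subunit *cacng1* (ENSDARG00000008772) was at 45.2 and 38.8 CPM in the crispants and at 48.7 and 50.1 CPM in wt (log2 fold change -0.23 ± 0.11 SE, edgeR adjusted p = 0.133). Here the crispant libraries were the lower ones. The second *cacng1* gene (ENSDARG00000052360) had 22 and 4 counts in the crispants against 16 and 9 counts in wt, too spread to compare (log2 fold change -0.07 ± 0.75 SE, edgeR adjusted p = 0.968).

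**Figure D4:**
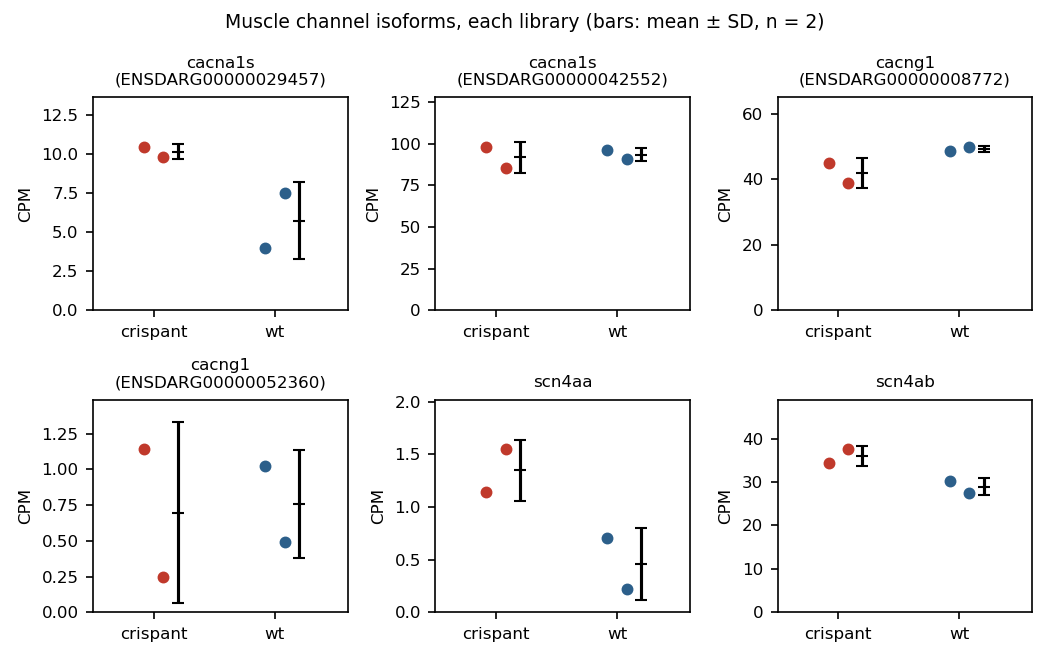
CPM of the 6 muscle channel genes, with a point for each library and a bar for mean ± SD (n = 2), crispants left of wt, each panel with its own axis from 0. Both crispant points are above both wt points in *cacna1s* (ENSDARG00000029457), *scn4aa* and *scn4ab*, and only the first of these passed the test. They are below both wt points in *cacng1* (ENSDARG00000008772), which did not pass. Of all tested genes, 28.1% had both crispant libraries above both wt libraries and 26.5% had both below.

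Genes that work beside the channels were read from a list outside the rule. Among 45 channel partners and other excitability genes (release machinery, sodium pumps, channel anchors) 12 fell (26.7%, against 7.44% of all tested genes) and 0 rose (edgeR; 0 higher and 20 lower at an unadjusted p under 0.05, DESeq2 called 0 higher and 9 lower, limma-voom 0 higher and 13 lower). Their median log2 fold change was -0.29, and without wt 2 the number lower was 7. *rims2a*, a presynaptic scaffold that tethers calcium channels at release sites, was at 42.0 and 42.6 CPM in the crispants and at 57.4 and 64.7 CPM in wt (log2 fold change -0.53 ± 0.10 SE, edgeR adjusted p = 5.32e-05). *atp1a3b*, a neuronal sodium pump subunit, was at 103 and 102 CPM in the crispants and at 139 and 129 CPM in wt (log2 fold change -0.38 ± 0.08 SE, edgeR adjusted p = 0.000194). *atp1b2* (ENSDARG00000099203), a pump beta subunit, was at 117 and 126 CPM in the crispants and at 156 and 157 CPM in wt (log2 fold change -0.36 ± 0.08 SE, edgeR adjusted p = 0.000231). In all of these the groups stood clearly apart. The genes were picked by the test on these same libraries, so their separation is no added support. Of all tested genes, 26.5% had both crispant libraries below both wt libraries.

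The excitation-contraction list of 30 genes had 3 that rose and 0 that fell (edgeR; 8 higher and 1 lower at an unadjusted p under 0.05, DESeq2 called 2 higher and 0 lower, limma-voom 3 higher and 0 lower). The share that rose, 10.0%, was near the 8.98% of all tested genes, of which 7.44% fell. The median log2 fold change of the list was 0.08. *ryr1* (ENSDARG00000011422), the calcium release channel of the sarcoplasmic reticulum that *cacna1s* gates, was at 79.1 and 67.3 CPM in the crispants and at 49.5 and 50.4 CPM in wt (log2 fold change 0.55 ± 0.10 SE, edgeR adjusted p = 1.03e-05). *ryr3* was at 1030 and 936 CPM in the crispants and at 823 and 856 CPM in wt (log2 fold change 0.23 ± 0.06 SE, edgeR adjusted p = 0.00664). The synaptic receptor kinase gene *musk* was at 10.3 and 9.38 CPM in the crispants and at 6.34 and 6.04 CPM in wt (log2 fold change 0.67 ± 0.23 SE, edgeR adjusted p = 0.0358). These 3 genes were picked by the test on these same libraries, so the separation of their groups is no added support. Of all tested genes, 28.1% had both crispant libraries above both wt libraries. All 3 were higher in each crispant library, and the number of genes called higher in the list was 1 without crispant 1, without wt 1 and without wt 2.

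Marker lists of the tissues moved in different directions. Over all tested genes 7.44% fell and 8.98% rose. Of 36 neuronal markers 25 fell (69.4%) and 0 rose (edgeR; 0 higher at an unadjusted p under 0.05 and with DESeq2 or limma-voom), with a median log2 fold change of -0.32, and their summed CPM was 3959 and 3984 in the crispants against 4994 and 5015 in wt. Among them *sncb*, a presynaptic synuclein, was at 112 and 114 CPM in the crispants and at 179 and 176 CPM in wt (log2 fold change -0.65 ± 0.08 SE, edgeR adjusted p = 2.31e-10). Of 23 markers of glia and myelin 9 fell (39.1%) and 0 rose (edgeR; 0 higher at an unadjusted p under 0.05 and with DESeq2 or limma-voom), with a summed CPM of 2159 and 2226 in the crispants against 2722 and 2679 in wt. Hair cell markers were mixed, with 2 of 26 higher (7.69%) and 3 lower (11.5%). None of the neuronal, glial or hair cell markers was at 0 counts in any library. The part of these markers in the channel values was not tested.

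On the other side, 10 of 30 skeletal muscle markers rose (33.3%, against 8.98% of all tested genes) and 0 fell (edgeR; 1 lower at an unadjusted p under 0.05, 0 lower with DESeq2, 1 lower with limma-voom), with a median log2 fold change of 0.13 and a summed CPM of 104974 and 108443 in the crispants against 97651 and 98215 in wt. Without wt 1 the number higher was 3, and without wt 2 it was 5, while 3 were lower without crispant 2. *myhb*, a fast myosin heavy chain, was at 106 and 114 CPM in the crispants and at 61.5 and 62.8 CPM in wt (log2 fold change 0.82 ± 0.09 SE, edgeR adjusted p = 6.33e-12). Of 21 heart markers tested 6 rose and 0 fell (edgeR; 0 lower at an unadjusted p under 0.05 and with DESeq2 or limma-voom), and without wt 1 the number higher was 3. The share of heart markers that rose with all libraries was 28.6%. Summed CPM of the heart markers was 679 and 658 in the crispants, against 508 and 525 in wt. Ionocyte and kidney markers had 9 of 24 higher (37.5%) and 1 lower (4.17%), and gut markers 13 of 22 higher (59.1%) and 1 lower (4.55%). The part of these lists in the muscle isoform and *kcnj13* values was not tested.

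**Figure D5:**
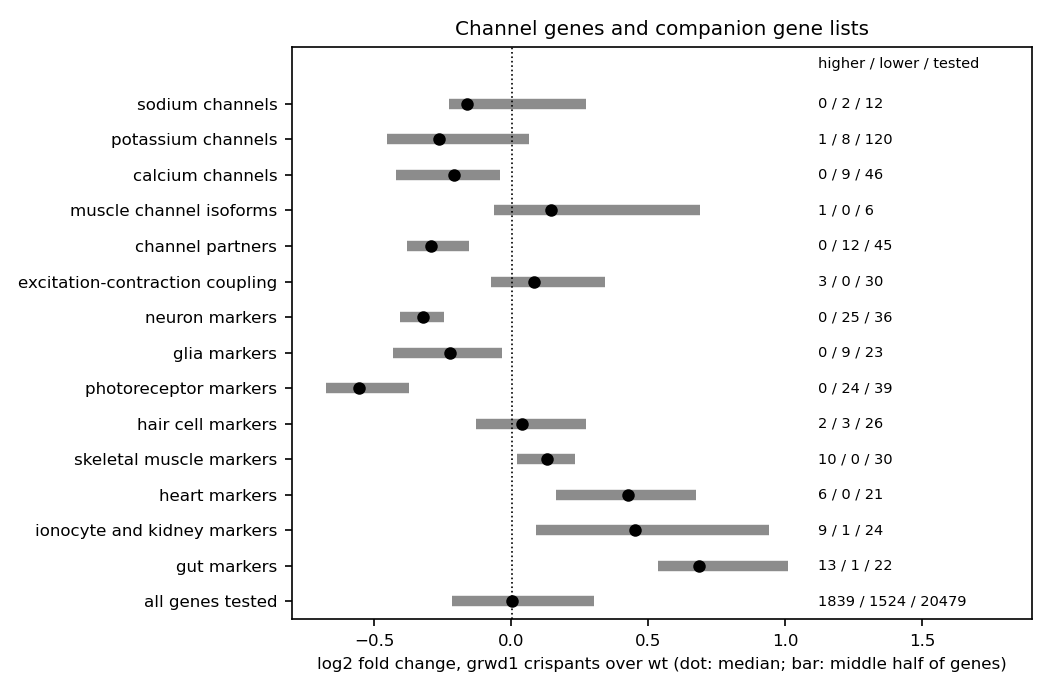
Median log2 fold change (crispants over wt, dot) and middle range of genes (bar, lower to upper quartile) for the channel groups and the companion lists, with the numbers higher, lower and tested at the right and a dotted line at the median of all genes. Medians of the sodium, potassium and calcium channels lie left of the line, as do those of the channel partners and the neuron, glia and photoreceptor markers. The muscle channel isoforms and all other lists have medians right of it, the gut markers farthest. The bars of the sodium channels, potassium channels and muscle channel isoforms cross the line, as do those of the excitation-contraction and hair cell lists.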

How the data were processed

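RNA from whole 8 dpf larvae was made into stranded total RNA libraries, which the labels call both polyA-enriched and rRNA-depleted. Per the labels, the authors trimmed reads with Trimmomatic 0.39, used HISAT2 with the GRCz11 build, and counted with featureCounts. FastQC and DESeq2 are listed too. The annotation is named only as GRCz11; for its release, for how strand was set and for reads with several hits, nothing is given in the sources used here. Reads of near copies and of overlapping or antisense genes may thus be shared. The counts are deposited as whole numbers per gene for the 4 libraries, with no normalization. Of 32667 lines, 147 repeated lines were dropped. Symbols came from a gene name table that matched 29201 identifiers.

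Samples were grouped by their titles. Crispants were compared with wt in R 4.3.3 by edgeR 4.0.16 (quasi-likelihood test, TMM scaling, filterByExpr, genotype as the only term, Benjamini-Hochberg adjustment over 20479 genes). No sequence was read, since no genome or sequence table was at hand. Alternatives were DESeq2 1.42.0, limma-voom (limma 3.58.1), RLE and library-total scaling, TMM without the 50 most abundant genes, other count filters, a stricter adjusted p of 0.01, a replicate block, each library left out, and the voltage-gated pores alone. The lists' alternatives and the CPM ranges were chosen after seeing the data. Duplicate libraries differed by more than sampling noise (chi-square per degree of freedom 5.12 in crispants and 4.57 in wt), so all 4 were kept. The code was tested on simulated data.

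Members and lists were chosen with earlier results of these data known. The genes named were every muscle isoform, per class the 2 with the largest total count and up to 5 passing genes a direction by smallest p, every passing gene with a log2 fold change of 1 or more in size, up to 3 passing genes per list and direction, and *grwd1*. List genes that qualified but are not needed beside a channel result enter only the counts, and some genes that met the rule are not reported here.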

Additional observations from a re-analysis of the deposited data

How the results depend on the processing

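For the 42 channel genes that met the naming rule, 463 values under the alternatives kept their direction and their side of the threshold, 57 lost the call, 8 gained it and 14 changed sign. The calcium channel counts stayed within 1.5 times under every other fit, but among the calcium pores alone 2 high-voltage and 1 T-type gene were lower. DESeq2 called 11 channel genes lower (1 sodium, 4 potassium) and 0 higher, with 0 potassium channels and 0 muscle isoforms higher. At an adjusted p of 0.01, 0 channel genes were higher (0 potassium, 0 muscle isoforms), and 1 sodium and 4 potassium channels lower. Over all genes 1193 were higher and 938 lower at that threshold. Among the 76 voltage-gated pores tested, 1 gene was higher (1.32%) and 8 lower (10.5%), against 8.98% and 7.44% of all tested genes. The lower share was close to the 10.3% of all tested channel genes.

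Library totals as the only scaling moved the median of all genes to 0.077 on the log2 scale and the calls over all genes to 2355 higher and 1000 lower, against 1839 higher and 1524 lower with TMM. For channel genes they gave 3 higher and 14 lower (1 sodium and 5 potassium channels lower, 2 muscle isoforms higher), with medians of -0.088 for sodium and -0.19 for potassium channels. With at least 10 counts in every library, 2 muscle isoforms were higher.

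With 1 library left out, channel genes higher numbered 0 to 2 and lower 13 to 16, sodium channels lower 1 to 3, potassium channels higher 0 to 1 and lower 4 to 6, and muscle isoforms higher 0 to 1. The medians ranged between -0.28 and -0.14 for all channel genes, between -0.29 and -0.19 for potassium channels and between 0.089 and 0.42 for muscle isoforms.

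Signs changed only in uncalled genes. Under library totals the log2 fold changes were 0.049 for *cacna1s* (ENSDARG00000042552), 0.0059 for *cacng1* (ENSDARG00000052360), 0.054 for *kcnj12b* and 0.044 for *kcnk10* (ENSDARG00000062849). With 1 library left out they ran between -0.13 and 0.067 for that *cacna1s*, -1.57 and 0.60 for that *cacng1*, -0.34 and 0.062 for *kcnc3a*, -0.053 and 0.012 for *kcnj12b*, -0.57 and 0.33 for *kcnk10*, -0.41 and 0.11 for *kcnk5* (ENSDARG00000012390), -0.11 and 0.46 for *cacna1g* and -0.67 and 0.016 for *cacnb1*. The causes were not tested.

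The replicate numbers did not pair the libraries (correlation of deviations -0.0067). With the replicate block 2 channel genes were higher and 19 lower, and all genes 1809 higher and 1451 lower. The *kcnma1* (ENSDARG00000079840) call was lost (edgeR adjusted p = 0.0527), and *cacng3* was called lower (0.0497).

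With 2 libraries a group, low counts limit what can be seen: 36 channel genes had fewer than 100 counts in all. Calls are for whole larvae and carry no tissue.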
